A study of Homo sapiens with 18 samples.

Results

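The genes described here are 37 direct targets of p53, chosen by symbol from 58302 genes in a count table of U87MG glioblastoma cells. Each symbol matched 1 Ensembl gene of the table, and all 37 had enough counts to be tested. Total RNA was sequenced in 4 libraries, 2 biological replicates of control cells under normal growth conditions and 2 given Erastin, a small molecule that blocks cystine import and induces ferroptosis. The dose was 10 μM and the exposure 72 h. U87MG is an established human line, so both groups share its genome, and the labels name no vehicle for the RNA-seq control. The control labels carry the letters WT, and the study, citing earlier work, describes U87MG as wild type for p53. The counts on genes totalled between 29412656 and 31513519 per library.

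p53 is a transcription factor that is kept low by the ubiquitin ligase HDM2 (gene MDM2) and accumulates after DNA damage, oncogene activity or metabolic stress. It binds response elements in promoters and first introns and raises the transcription of genes for cell cycle arrest, DNA repair, cell death and metabolism. The members were grouped by function into arrest and growth control, DNA repair and chromatin, death and survival, metabolism, and a small group of ligands, transcription and antiviral factors.

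A p53 response element is built from 2 adjacent decamers of 10 letters each, and its consensus is the same on both strands. Sequence within 5000 bases of each RefSeq start (GRCh38.p14) was searched for 20 letters with CNNG at the centre of both decamers and at most 2 letters off the p53 consensus. Starts were given for 31 of the 37 members, not for CMBL, GADD45A, PHLDA3, TNFRSF10B, TP53INP1 and TRIM22. Such a match lay near 15 of these 31 genes (48.4%), and near 2386 of 27305 genes of the same reference (8.74%). The members were chosen as known p53 targets, so these shares are not an independent test of them. Genes with more starts also had more sequence searched. The matches below are shown because they belong to members that rose strongly, rose weakly or did not pass the test. They are printed 5′ to 3′ in the direction of the gene, with the CNNG cores in capitals.
CDKN1A: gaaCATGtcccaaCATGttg
FAS: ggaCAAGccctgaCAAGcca
ZMAT3: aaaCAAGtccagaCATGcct
EDA2R: gaaCATGcctggaCGTGtcc
SPATA18: ggaCATGtgtgtaCATGccc
ABCA12: gagCGAGtcttaaCATGccc
PLK2: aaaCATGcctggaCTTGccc
DDB2: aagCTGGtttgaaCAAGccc
CCNG1: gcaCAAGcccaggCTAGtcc

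The CDKN1A match (chr6:36676449-36676468, plus strand) began at −2265 from the RefSeq start and overlapped untranslated sequence at the edge of the annotated gene. The FAS match (chr10:88991309-88991328, plus strand) was at −122 from the nearest start and overlapped annotated untranslated sequence. Those of ZMAT3 (chr3:179070188-179070207, minus strand) and PLK2 (chr5:58462274-58462293, minus strand) had every letter of the consensus. The ZMAT3 match was intronic, whereas that of PLK2 lay outside the gene, at −2207 from its start. The matches of EDA2R (chrX:66638713-66638732, minus strand), SPATA18 (chr4:52051957-52051976, plus strand) and ABCA12 (chr2:215137956-215137975, minus strand) were intronic, 346, 653 and 651 bases after a start. DDB2 (chr11:47214969-47214988, plus strand) had its match at −5 from a start, overlapping untranslated sequence. The match of CCNG1 (chr5:163437926-163437945, plus strand) was intronic and had 1 letter off the consensus. A match is a string of letters and does not show that p53 was bound.

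Most p53 target genes were upregulated by Erastin in U87MG cells. The log2 fold change (log2FC) compares Erastin with control. Upregulated genes had a log2FC of 1 or more, downregulated genes one of −1 or less, with an adjusted p under 0.05 from edgeR's quasi-likelihood test, and "rose" or "fell" is used for an adjusted p under 0.05 at any fold. Of the 37 members, 26 were called upregulated (70.3%), while 6.24% of the 16751 genes tested were. Another 5 members rose by less than the fold threshold, so that 31 rose in all (83.8%, against 23.2% of the genes tested). PGF was the 1 member called downregulated, against 9.34% of the genes tested. The remaining 5 members did not pass the test. The median log2FC was 1.24 over the members and −0.0026 over all genes tested. The members took 0.205% ± 0.000707 (SD, n = 2) of all counts in control and 0.548% ± 0.00297 (SD, n = 2) after Erastin. For 34 members the Erastin libraries were both higher than either control, against 36.7% of the genes tested. These 34 include CCNG1, POLH and FUCA1, which did not pass the test. In bulk RNA, more transcript per cell and a different mixture of cells cannot be told apart.

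**Figure D1:**
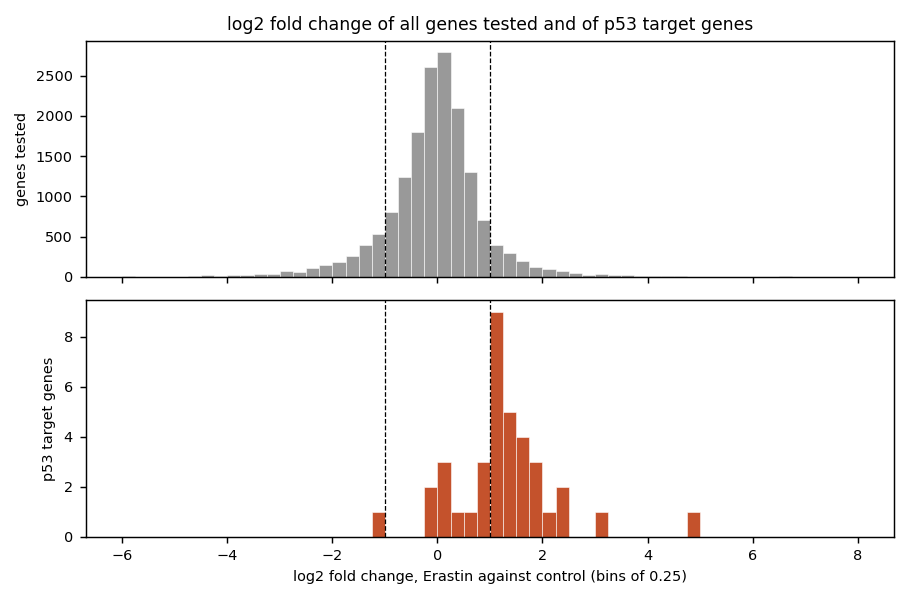
Number of genes per bin of the log2FC (Erastin against control, bins of 0.25) for all 16751 genes tested (top) and the 37 p53 target genes (bottom), with dashed lines at −1 and 1. The bulk of all genes centres on −0.0026, whereas most p53 target genes lie at or above 1, around their median of 1.24.

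Genes of arrest and growth control were led by CDKN1A, with 5 of 7 called upregulated, against 6.24% of all genes tested. The group median log2FC was 1.79. CDKN1A (ENSG00000124762; GRCh38 chr6:36676460-36687339) encodes p21, the inhibitor of cyclin-dependent kinases through which p53 halts the cell cycle. The control libraries held 6861 and 6426 counts of it, the Erastin libraries 34400 and 36807. Its expression rose 5.38-fold, from 216 ± 12.4 CPM (TMM-normalized counts relative to library size; SD, n = 2) to 1161 ± 15.1 CPM (SD, n = 2). This was a log2FC of 2.43 (standard error [SE] 0.0692, adjusted p = 3.98e-10). Per kilobase of exon CDKN1A had the highest level of all members in both groups, 70.7 ± 4.06 CPM per kilobase (SD, n = 2) in control and 381 ± 4.95 (SD, n = 2) with Erastin. It alone took 10.3% ± 0.453 (SD, n = 2) of the members' counts in control and 21.5% ± 0.151 (SD, n = 2) after Erastin.

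SERTAD1, a cofactor of E2F-dependent transcription, had 259 and 233 counts in control and 1233 and 1291 in Erastin libraries. This was a log2FC of 2.37 (SE 0.119, adjusted p = 2.30e-08). GADD45A, a stress sensor that binds PCNA and p21, rose from 1595 and 1711 counts to 7249 and 6395. Its log2FC of 2.06 (SE 0.0897, adjusted p = 6.78e-09) ranged from 1.92 to 2.18 when any 1 library was left out. The polo-like kinases PLK2 and PLK3, which act in stress checkpoints, both rose. PLK3 went from 586 and 582 counts to 1941 and 2082, a log2FC of 1.79 (SE 0.0907, adjusted p = 2.47e-08). PLK2 had 1196 and 1290 counts in control and 2284 and 2416 in Erastin libraries. Its log2FC of 0.93 (SE 0.0789, adjusted p = 1.87e-06) was just under the fold threshold. PTP4A1, a growth-promoting phosphatase of the PRL family, rose by 1.24 on the log2 scale (SE 0.0695, adjusted p = 5.61e-08). Its 7 pseudogenes in the table had 0 counts in every library. Reads on more than 1 place were not counted, so this cannot show whether such copies share reads with PTP4A1. A gene on the opposite strand, ENSG00000266680, shares 6.62% of the exon bases of PTP4A1. That gene had 14 and 16 counts in control and 106 and 118 in Erastin libraries.

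CCNG1, which encodes cyclin G1 and is among the most firmly established p53 targets, did not pass the test. It had 5969 and 5951 counts in control and 5984 and 6148 in Erastin libraries, or 193 ± 2.58 and 198 ± 3.11 CPM (SD, n = 2 each). The log2FC was 0.03 (SE 0.0642, adjusted p = 0.709), and it stayed between 0.01 and 0.05 without each library in turn. CCNG1 was well expressed, second among the members per kilobase of exon in control cells at 62.5 ± 0.832 CPM per kilobase (SD, n = 2). After Erastin the level was 63.9 ± 1.00 CPM per kilobase (SD, n = 2), the fifth.

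**Figure D2:**
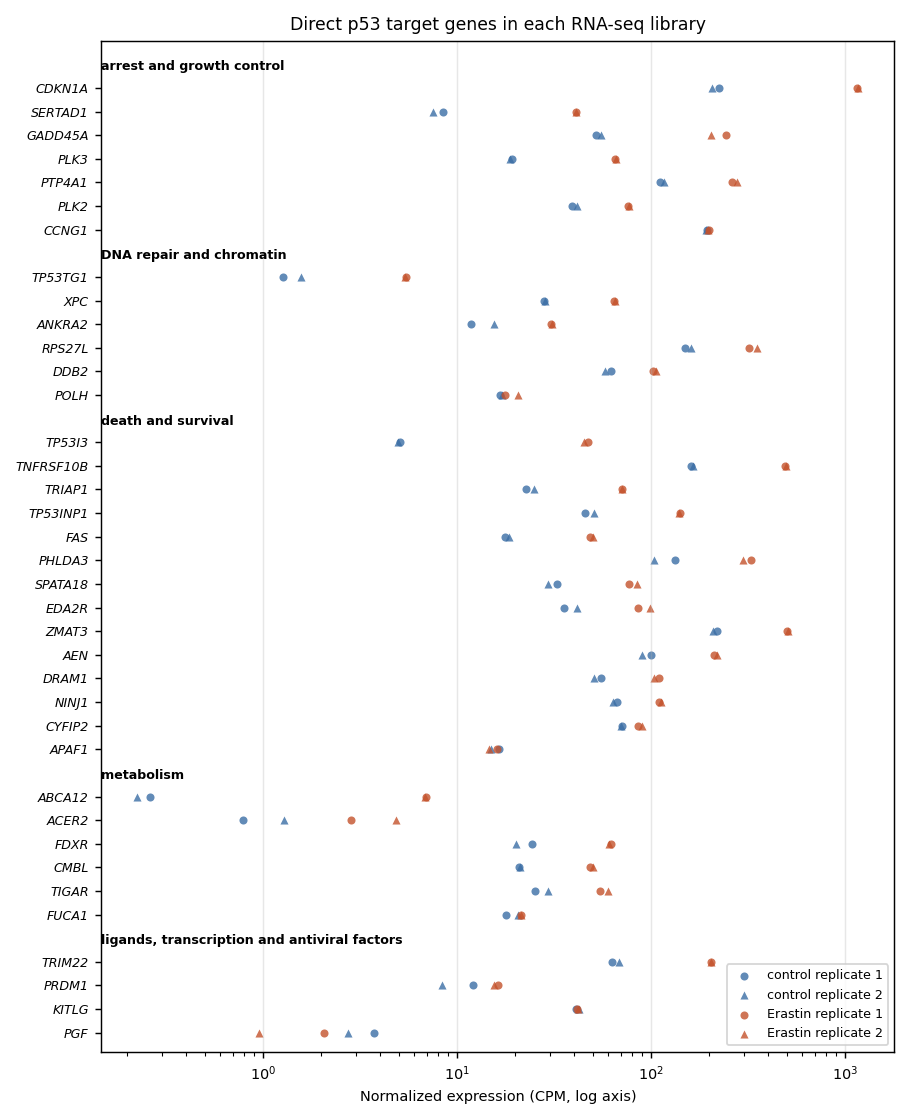
Normalized expression (CPM, log axis) of each of the 37 p53 target genes in the 4 libraries, grouped by function, with circles and triangles for replicates 1 and 2. Blue control and red Erastin points are apart for CDKN1A (216 against 1161 CPM on average) and most other genes. They lie close together for CCNG1, APAF1 and KITLG.

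Of 6 genes of DNA repair and chromatin, 4 were called upregulated, XPC, RPS27L, TP53TG1 and ANKRA2, against 6.24% of all genes tested. DDB2 and POLH were not called. The group median log2FC was 1.14. XPC, the damage sensor that opens nucleotide excision repair, had 857 and 881 counts in control and 1936 and 2060 in Erastin libraries. The resulting log2FC was 1.21 (SE 0.0847, adjusted p = 3.71e-07). Other genes overlap 30.4% of the exon bases of XPC, all on the opposite strand and XPC-AS1 most, and reads on shared bases were not counted. DDB2, the partner of XPC in recognizing ultraviolet damage, rose from 1902 and 1790 counts to 3067 and 3318, a log2FC of 0.80 (SE 0.0743, adjusted p = 3.99e-06). POLH, the DNA polymerase eta that copies past such damage, had 510 and 527 counts in control and 527 and 650 in Erastin libraries. Its log2FC of 0.19 (SE 0.127, adjusted p = 0.253) did not pass the test.

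RPS27L, a ribosomal protein paralogue that takes part in the damage response, had 4568 and 5006 counts in control and 9616 and 11066 in Erastin libraries. The log2FC of RPS27L was 1.12 (SE 0.0731, adjusted p = 2.07e-07). The paralogue RPS27 had 7444 and 7775 counts in control and 6589 and 9176 in Erastin libraries (log2FC 0.05, adjusted p = 0.714), so the Erastin libraries of RPS27 lay on either side of its controls. The lncRNA TP53TG1 rose from 39 and 49 counts to 164 and 170, a log2FC of 1.93 (SE 0.270, adjusted p = 1.05e-04). Genes on the opposite strand, each with 0 counts, overlap 32.6% of the exon bases of TP53TG1, the largest share among the members. ANKRA2, an ankyrin repeat protein that binds class II histone deacetylases, rose by 1.17 on the log2 scale (SE 0.138, adjusted p = 2.82e-05). Without control replicate 1 the value of ANKRA2 was 0.98, under the fold threshold.

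Death and survival was the largest group, with 11 of its 14 genes called upregulated, against 6.24% of all genes tested. Its median log2FC was 1.32. TP53I3 (PIG3; ENSG00000115129; GRCh38 chr2:24077433-24085861) encodes a quinone oxidoreductase that raises reactive oxygen species. It had 155 and 154 counts in control and 1415 and 1427 in Erastin libraries. Expression rose 9.24-fold, from 5.01 ± 0.0790 to 46.4 ± 1.34 CPM (SD, n = 2 each), a log2FC of 3.21 (SE 0.119, adjusted p = 1.93e-09).

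The death receptors of the list rose together. TNFRSF10B (DR5), a receptor of the ligand TRAIL, went from 4926 and 5087 counts to 14723 and 15604, with a log2FC of 1.61 (SE 0.0637, adjusted p = 3.37e-09). FAS, the receptor of FAS ligand, went from 543 and 577 counts to 1447 and 1584, with a log2FC of 1.44 (SE 0.0990, adjusted p = 3.13e-07). ACTA2 overlaps 8.93% of the exon bases of FAS on the opposite strand, and it had 384 and 425 counts in control and 929 and 952 in Erastin libraries. EDA2R, the receptor of ectodysplasin A2, rose from 1090 and 1289 counts to 2574 and 3123, a log2FC of 1.27 (SE 0.0983, adjusted p = 8.58e-07). Of the ligands, FASLG had 0 counts in every library, and TNFSF10 (TRAIL) had 11 and 6 counts in control and 2 and 2 in Erastin libraries. APAF1, the scaffold of the apoptosome, had 501 and 465 counts in control and 482 and 461 in Erastin libraries. Its groups overlapped, and its log2FC of −0.03 (SE 0.131, adjusted p = 0.889) did not pass the test.

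Regulators within the group rose on both sides of cell death. TP53INP1, which promotes death and autophagy, rose from 1405 and 1571 counts to 4218 and 4371 (log2FC 1.54, SE 0.0756, adjusted p = 1.93e-08). AEN, an apoptosis-enhancing nuclease, rose from 3051 and 2802 counts to 6349 and 6906 (log2FC 1.19, SE 0.0732, adjusted p = 1.26e-07). PHLDA3, which restrains AKT at the membrane, went from 4082 and 3223 counts to 9838 and 9333. This gave PHLDA3 a log2FC of 1.40 (SE 0.105, adjusted p = 6.34e-07). Another gene on the same strand, with 0 counts in every library, shares 19.1% of the exon bases of PHLDA3. TRIAP1, a small protein that protects mitochondria from apoptosis, rose from 695 and 772 counts to 2131 and 2217, a log2FC of 1.58 (SE 0.0891, adjusted p = 6.01e-08). ZMAT3, an RNA-binding protein that alters splicing, had 6689 and 6468 counts in control and 15043 and 16002 in Erastin libraries. It rose by 1.25 on the log2 scale (SE 0.0644, adjusted p = 2.99e-08).

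SPATA18, which acts in the removal of damaged mitochondrial proteins, rose by 1.38 (SE 0.0889, adjusted p = 1.76e-07). DRAM1, a lysosomal membrane protein that promotes autophagy, rose by 1.01 (SE 0.0766, adjusted p = 6.98e-07), the smallest value among the called members, and fell under the threshold without control replicate 2 (0.95) or Erastin replicate 1 (0.97). NINJ1, which ruptures the plasma membrane in lytic cell death, had 2035 and 1987 counts in control and 3297 and 3556 in Erastin libraries. NINJ1 thus had a log2FC of 0.78 (SE 0.0707, adjusted p = 3.28e-06). CYFIP2, a subunit of the WAVE actin-regulating complex, rose by 0.31 (SE 0.0719, adjusted p = 0.00390).

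**Figure D3:**
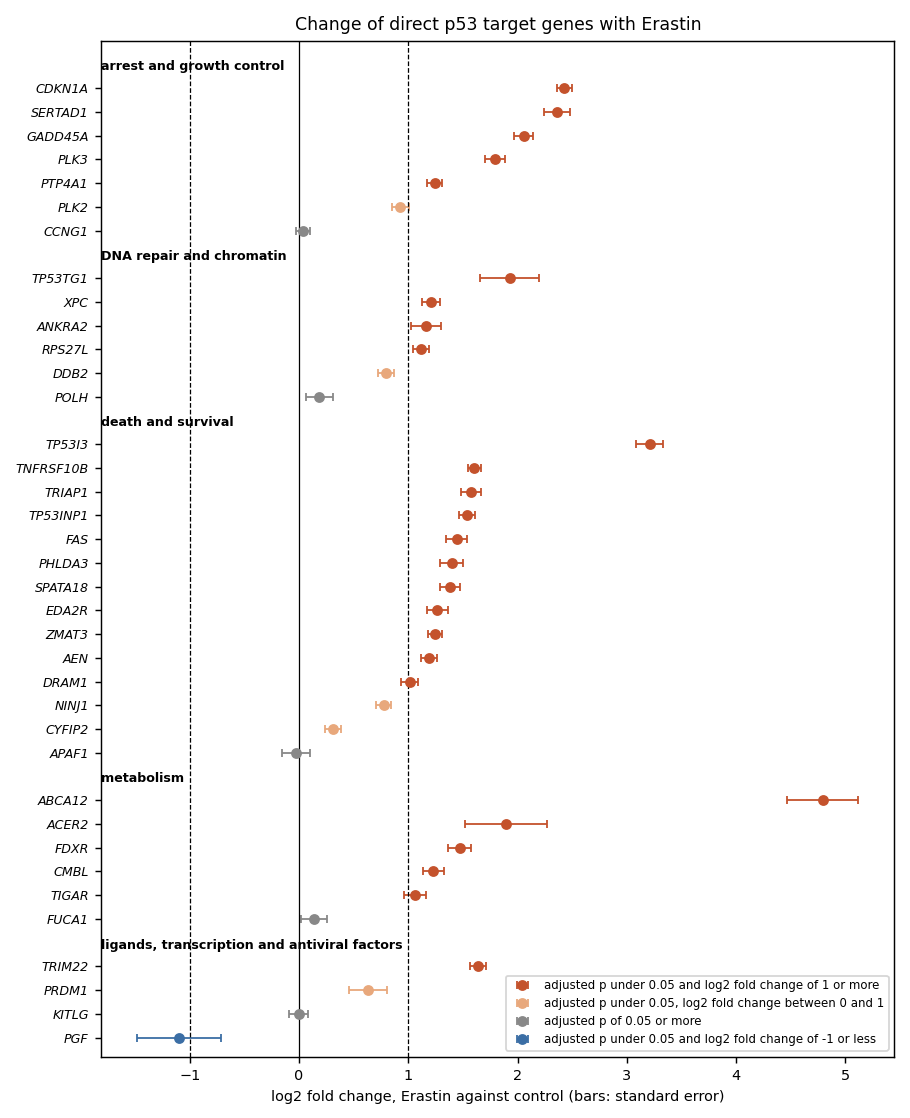
log2FC of each p53 target gene, Erastin against control, with bars for the SE and colours for the outcome of edgeR's test. The 26 called upregulated genes lie to the right of the dashed line at 1, from DRAM1 (1.01) to ABCA12 (4.79), and PGF (−1.10) is the 1 gene to the left of −1.

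Of 6 metabolic genes, 5 were called upregulated, against 6.24% of all genes tested, with a group median log2FC of 1.35. ABCA12, a lipid transporter best known from skin, had the largest fitted change of the 37 genes and almost no transcript in control cells. There were 8 and 7 counts in control against 206 and 214 in Erastin libraries, a log2FC of 4.79 (SE 0.328, adjusted p = 3.05e-07). Both control counts were under the minimum of 10, so ABCA12 passed the filter on low counts only through the Erastin libraries, and it was not tested when every library needed 10 counts. Even so its level after Erastin, 0.727 ± 0.00573 CPM per kilobase (SD, n = 2), was the second lowest of the members. ACER2, an alkaline ceramidase, was also low, with 24 and 40 counts in control and 85 and 153 in Erastin libraries. ACER2 thus had a log2FC of 1.89 (SE 0.377, adjusted p = 0.00144), with a range of 1.45 to 2.28 without each library in turn.

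FDXR, the ferredoxin reductase that feeds electrons into mitochondrial iron–sulfur cluster and steroid synthesis, went from 745 and 627 counts to 1867 and 1915. This was a log2FC of 1.47 (SE 0.105, adjusted p = 4.47e-07). TIGAR, a phosphatase that turns glucose towards the pentose phosphate pathway and so towards NADPH, had 773 and 915 counts in control and 1627 and 1879 in Erastin libraries. It rose by 1.06 on the log2 scale (SE 0.103, adjusted p = 5.61e-06), and by 0.95 without control replicate 1 and 0.99 without Erastin replicate 2, both under the fold threshold. CMBL, a hydrolase of the dienelactone hydrolase family, rose from 641 and 656 counts to 1447 and 1575 (log2FC 1.23, SE 0.0958, adjusted p = 8.97e-07). FUCA1, a lysosomal fucosidase, had 550 and 644 counts in control and 636 and 671 in Erastin libraries, with a log2FC of 0.14 (SE 0.120, adjusted p = 0.376).

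Among ligands, transcription and antiviral factors, 1 of 4 was called upregulated and 1 downregulated, against 6.24% and 9.34% of all genes tested. TRIM22, an antiviral ubiquitin ligase, rose from 1928 and 2121 counts to 6127 and 6428, a log2FC of 1.64 (SE 0.0715, adjusted p = 6.78e-09). OR56B1 on the same strand, with 0 counts in every library, shares 10.7% of the exon bases of TRIM22. PRDM1, a transcriptional repressor, had a log2FC of 0.63 (SE 0.173, adjusted p = 0.0102) that rested on control replicate 2. Without that library the log2FC of PRDM1 was 0.38 (adjusted p = 0.0602 from edgeR), which did not pass the test, and over the 4 libraries left out in turn it ranged from 0.38 to 0.92. KITLG, the ligand of the receptor KIT, had 1254 and 1321 counts in control and 1240 and 1320 in Erastin libraries (log2FC −0.0012, SE 0.0879, adjusted p = 0.994). PGF, placental growth factor of the VEGF family, had 114 and 85 counts in control and 62 and 30 in Erastin libraries. For PGF the log2FC was −1.10 (SE 0.383, adjusted p = 0.0341), but DESeq2 gave an adjusted p of 0.0695. The call was also lost without control replicate 1 (log2FC −0.86, adjusted p = 0.104 from edgeR) or Erastin replicate 2 (log2FC −0.64, adjusted p = 0.180). glmTreat, which tests the 2-fold change itself, did not call PGF either. Over the alternatives other than glmTreat the adjusted p of PGF ranged from 0.00317 to 0.180.

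A p53 match lay near 10 of the 20 called upregulated members that had a RefSeq start and near 5 of the 11 others. Of all genes of the reference 8.74% had one. Among the 5 others with a match, PLK2, DDB2 and PRDM1 rose by less than the fold threshold. CCNG1 and FUCA1 did not pass the test. PLK2 and ZMAT3 had matches with the whole consensus and log2FC values of 0.93 and 1.25. With 1 letter off, EDA2R, PTP4A1, DDB2, PRDM1, FUCA1 and CCNG1 had log2FC values of 1.27, 1.24, 0.80, 0.63, 0.14 and 0.03. CCNG1 had a second match 2351 bases after a start, 2 letters off, and EDA2R and PTP4A1 each had another with 2 letters off. For CDKN1A, ABCA12 and FAS, with log2FC values of 2.43, 4.79 and 1.44, the matches were 2 letters off. So were those of ACER2, AEN, DRAM1 and SPATA18, with values of 1.89, 1.19, 1.01 and 1.38. Whether the letters off go with the change was not tested.

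Of 20 regulators of the p53 circuit 17 could be tested, and 1 was called upregulated and 1 downregulated, with a median log2FC of 0.38. These called counts were near the shares of all genes tested, 6.24% upregulated and 9.34% downregulated. At an adjusted p under 0.05 and any fold, 9 of the 17 rose and 5 fell, against 23.2% and 23.7% of the genes tested. MDM2, both inhibitor and target of p53, was the upregulated gene, with a log2FC of 2.43. MDM4, the other inhibitor, fell from 1667 and 1732 counts to 985 and 1122 (log2FC −0.68, SE 0.0887, adjusted p = 5.84e-05). PPM1D, a phosphatase that switches the p53 response off, rose from 358 and 316 counts to 679 and 622, with a log2FC of 0.96 (SE 0.138, adjusted p = 1.31e-04). The value of PPM1D passed the fold threshold when libraries were scaled by their totals or when control replicate 1 or Erastin replicate 2 was left out, which gave 2 called upregulated regulators. CHEK2, a checkpoint kinase upstream of p53, was the downregulated gene (log2FC −1.49). CDKN2A, whose product ARF restrains MDM2, had 0 counts in every library.

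Other known p53 targets were taken from general knowledge, with earlier results of these data known, so they are not independent of the members. Of 33 genes 28 could be tested, 16 were called upregulated and 1 downregulated, and the median log2FC was 1.13. Among all genes tested 6.24% were called upregulated and 9.34% downregulated. The largest rises were those of BTG2, RRAD, GDF15 and VWCE, with log2FC values of 3.82, 3.05, 2.90 and 2.60. The downregulated gene, STEAP3 (−1.12), which encodes an iron reductase, and the receptors that follow were named after their values were seen. The TRAIL receptors TNFRSF10A, TNFRSF10C and TNFRSF10D rose by 1.95, 1.42 and 2.22 on the log2 scale. TNFRSF10C and TNFRSF10D are decoys that bind TRAIL without transmitting a death signal. TNFRSF10A had few counts, 26 and 16 in control and 97 and 65 in Erastin libraries.

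Proteins that work with the members were listed too. Of 12 tested partners of death receptors and the apoptosome, 2 were called upregulated and 0 downregulated, against 6.24% and 9.34% of all genes tested. At an adjusted p under 0.05, 5 rose and 4 fell, against 23.2% and 23.7% of all genes tested, with the same numbers at an unadjusted p under 0.05. Both upregulated genes encode inhibitors of caspases or of their activation, CFLAR (log2FC 1.20, adjusted p = 4.13e-07) and XIAP (1.04, adjusted p = 1.43e-07). With glmTreat 0 of these partners were called upregulated. Of 19 partners of nucleotide excision repair, 0 were called upregulated and 2 downregulated, while 6 rose and 6 fell at an adjusted p under 0.05, as at an unadjusted one. The downregulated genes were RPA3 and LIG1 (log2FC values −1.21 and −1.10). Of all genes tested 9.34% were called downregulated, 23.2% rose and 23.7% fell, so the counts of the excision repair partners do not set them apart. Among 19 tested paralogues of the members, TP53INP2 was called upregulated (1.24) and PLK1 and PLK4 downregulated (−4.51 and −2.85), the median log2FC being 0.09. These counts too were near the shares of all genes tested. PLK2 and PLK3 rose while the mitotic kinases of the same family fell.

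Of 16 genes known to be repressed through p21 and the DREAM complex, 15 were called downregulated and 0 upregulated, with a median log2FC of −2.90. Among all genes tested 9.34% were called downregulated. All 16 fell at an adjusted p under 0.05, and 0 rose at an unadjusted one. CDC20, PLK1, CCNB1 and BUB1 had log2FC values of −4.62, −4.51, −3.82 and −3.57. PLK1 and PLK4 are also counted among the paralogues, and CHEK1 among the circuit regulators. Whether p21 or the DREAM complex lowered these genes here was not tested. The part of these genes in the values of the members was not tested either.

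**Figure D4:**
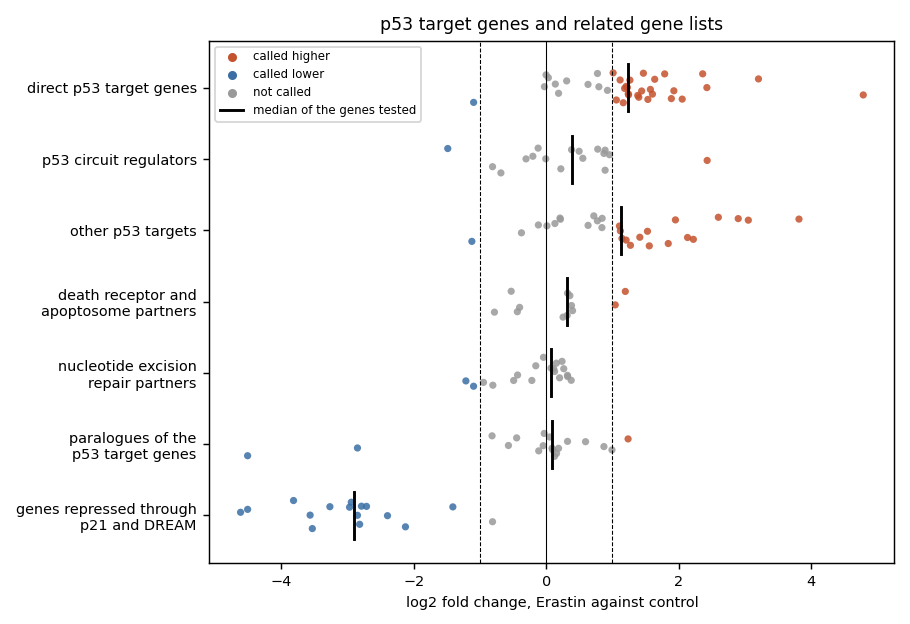
log2FC (Erastin against control) of the p53 target genes and of 6 related gene lists. Each point is 1 tested gene, jittered in height, red or blue where called, and black bars mark medians, from 1.24 for the p53 target genes and 1.13 for other p53 targets to −2.90 for genes repressed through p21 and DREAM.

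Markers of the labelled cells were checked in the same libraries. VIM and CD44 were high, GFAP had 41 to 81 counts, and S100B, AQP4 and SOX2 had under 20 counts in every library. The 9 glioma and astrocyte markers summed to 4182 and 4143 CPM in control and 2714 and 2903 CPM in Erastin libraries, and 4 of the 9 fell, NES and CHI3L1 most (log2FC values −3.62 and −2.26). The 4 leukocyte markers summed to at most 0.477 CPM in any library, with CD3E at 0 counts. Endothelial markers summed to between 4.51 and 6.05 CPM in control and to 1.07 and 1.05 CPM in Erastin libraries, nearly all from PECAM1, with CDH5 at 1 count at most. The neuronal markers summed to 17.6 and 18.3 CPM in control and to 9.70 and 8.62 CPM in Erastin libraries, mostly from SYT1. The part of the markers that fell in the values of the p53 target genes was not tested.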

How the data were processed

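Per the file headers, the authors counted reads on genes with featureCounts 2.0.3 on GRCh38 with gene models of Ensembl 90, ignoring strand. The reads were aligned with Hisat2. The submitters' processing notes give HISAT2 2.1.0 and featureCounts 2.0.4, while the methods name htseq-count. The deposited values are raw counts. They were checked for the decimals of estimated counts, and 0 values in the deposited table were not whole. By the command, reads on more than 1 gene or place were not counted, and both reads of a pair entered the counts.

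edgeR 4.0.16 (R 4.3.3) was used for the counts. filterByExpr (minimum count 10) kept 16751 genes, TMM gave factors between 0.971 and 1.02, and the quasi-likelihood test compared 2 Erastin with 2 control libraries over the whole table, two-sided, with Benjamini-Hochberg adjustment. All adjusted p-values are from this test unless DESeq2 (1.42.0) is named. Standard errors were the absolute log2FC over the square root of the F statistic. For 2 against 2 libraries the smallest exact permutation p is 0.333 (two-sided). The edgeR p-values borrow their variance from all genes. Replicate libraries differed by more than sampling noise (chi-square per degree of freedom 11.3 and 9.23). No molecular identifiers are described, so reads copied by PCR are not independent molecules and counts overstate precision. On data simulated for this comparison, with 200 of 16751 genes changed by 2 on the log2 scale, edgeR recovered 200 and called 1 unchanged gene, and DESeq2 recovered 200 and called 0. Only genes above a floor of expression were changed there, and all genes were given the same spread. The simulation therefore does not bear on changes near the fold threshold, on low counts or on genes with a larger spread.

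The members, lists and tests were chosen with earlier results of these data known. The lists came from general knowledge. All members are named, MDM2, MDM4 and PPM1D are named in any case, and of each list up to 4 called genes with the largest change. Alternatives were DESeq2, RLE factors, library totals, other count filters, a replicate block, pairs of reads, glmTreat, thinning all libraries to the depth of the smallest, protein-coding genes alone (GENCODE release 44) and each library left out. Promoter starts came from RefSeq. ChIP-seq and HiChIP data were not analysed here. Some items that the rule covers are not reported here.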

Additional observations from a re-analysis of the deposited data

How the results depend on the processing

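With 4 libraries, the 9 alternatives that used the same thresholds each gave 25 or 26 called upregulated members, and 24 of the 26 were called in each of them. ABCA12 was not tested with at least 10 counts in every library, and TP53TG1 not among protein-coding genes. With each library left out the count was 24 to 25, with ANKRA2, TIGAR and DRAM1 lost in some fits. Members higher at an adjusted p under 0.05 numbered 30 to 31, with PRDM1 lost without control replicate 2. When glmTreat tested the 2-fold change itself (a log2 fold change of 1), 19 members stayed upregulated. It did not call XPC, RPS27L, CMBL, ACER2, ANKRA2, TIGAR and DRAM1. The share of all genes tested that glmTreat called is not given here.

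The downregulated count (PGF) was 0 with DESeq2, whose count of members lower at an adjusted p under 0.05 was also 0, 0 with glmTreat, and 0 to 1 without each library. The median log2 fold change of the members was 1.29 with library totals and 1.20 to 1.25 with each library left out. With library totals, 2 circuit regulators (adding PPM1D) and 2 paralogues (adding ZMAT1) were called upregulated, and with each library left out both counts were 1 to 2. With glmTreat, 0 of the other p53 targets were called downregulated, 0 death partners upregulated and 0 excision repair partners downregulated. KITLG and APAF1, which did not pass the test, changed sign. KITLG was 0.0017 with DESeq2, 0.0003 with RLE factors, 0.0483 with library totals, and between −0.0298 and 0.0171 with a library left out. APAF1 was 0.0239 with library totals and between −0.0985 and 0.0403 with a library left out.

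The replicate numbers name no pairing, and deviations of same-numbered libraries correlated at 0.0203 across genes. With the replicate block, 26 members were called upregulated and 1 downregulated, as without the block.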
